A study of Mus musculus with 4 samples.

Results

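The BH3-only genes encode small proteins that start the mitochondrial route of cell death, and 8 of them were examined in BCR-ABL1-transformed mouse cell lines with INK4-resistant cyclin D-dependent kinases. The members were listed by gene name as BH3-only genes, with earlier results of these data known: Bbc3 (PUMA), Pmaip1 (NOXA), Bcl2l11 (BIM), Bmf, Bik, Bad, Bid and Hrk. Together they had 10 probes among the 55681 on the array, and 6 of the 8 genes were among the 20051 genes tested.

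The cell lines arose from fetal liver transduced with p185 BCR-ABL1, a fusion tyrosine kinase of acute lymphoblastic leukaemia. All lines, wild type (WT) included, carried this oncogene, and their strain background was mixed (C57BL/6J x CD-1). The R/R lines carried the Cdk4 R24C and Cdk6 R31C substitutions on both alleles, which are known to keep INK4 inhibitors from binding the kinases. On 3 two-colour arrays, R/R clones 1, 2 and 3 in Cy5 were each set against a WT pool in Cy3, and on 1 further array an R/R pool in Cy3 was set against the WT pool in Cy5. Each clone is a spontaneously immortal line of its own, the identifiers of clones 1 and 2 share a number while that of clone 3 differs, and what the pools held is not given in the sources used here. The comparison asks how R/R lines differ from WT lines, and ratios are given with R/R on top throughout.

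BH3-only proteins share a short helix, the BH3 domain, with which they occupy a groove on BCL2-type survival proteins or directly activate the effectors BAX and BAK, which then open the outer mitochondrial membrane. In lymphoid cells their amounts are known to set how readily cells die on loss of growth signals, on DNA damage or on oncogene stress. Some are controlled mainly by transcription, such as Bbc3 and Pmaip1, and others mainly by phosphorylation or cleavage of the protein, such as Bad and Bid.

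Between 42.8% and 53.4% of spots were well above background per channel, and the median SD between the 3 clones was 0.17 on the log2 scale over the genes tested, so precision is set by the few arrays. The labels name no cell type, so lineage markers were read: all 9 B-cell precursor markers read, Ebf1 and Pax5 among them, were well above background in all 8 channels, and the log2 of their summed intensity was 16.70 to 17.24 in R/R and 16.66 to 16.86 in WT. None of the 5 hepatocyte markers passed the filter on dim probes, and Alb, Afp, Ttr and Apoa1 were dim in every channel. Of 6 erythroid markers, Klf1, Epor, Hba-a1 and Alas2 were dim in every channel. Gata1 was well above background in the WT channels only. Hbb-bt was bright in every channel and was lower in R/R, which put the log2 of the summed erythroid intensity at 11.03 to 11.81 in R/R and 13.05 to 13.23 in WT. Without Hbb-bt these ranges were 8.40 to 8.49 and 8.46 to 8.50. Of 6 myeloid markers, Elane, Itgam and Csf1r were bright in all channels and Mpo and Cebpa in none, with a log2 summed intensity of 14.04 to 15.13 in R/R and 14.87 to 15.00 in WT. Of 6 T-cell markers, Cd3e, Lck and Cd4 were bright in all channels (log2 sums of 11.35 to 12.51 in R/R and 11.56 to 11.67 in WT). Cd3d and Cd8a were dim in every channel, and Cd3g was well above background in 1 WT channel only. The part of other cell types in the results was not tested.

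The sequence just before a transcription start is shown for the members with the smallest p, Bbc3 and Bmf, and for Bcl2l11, because these windows held a match to a motif of a factor family known to act on BH3-only genes. Each line holds the 250 bases before 1 annotated start, 5′ to 3′ on the strand of the gene, from RefSeq on GRCm38.p6. The windows are chr7:16310011-16310260 (plus strand) for Bbc3, chr2:118544588-118544837 (minus strand) for Bmf and chr2:128125788-128126037 (plus strand) for Bcl2l11. Capitals mark the match.

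Bbc3: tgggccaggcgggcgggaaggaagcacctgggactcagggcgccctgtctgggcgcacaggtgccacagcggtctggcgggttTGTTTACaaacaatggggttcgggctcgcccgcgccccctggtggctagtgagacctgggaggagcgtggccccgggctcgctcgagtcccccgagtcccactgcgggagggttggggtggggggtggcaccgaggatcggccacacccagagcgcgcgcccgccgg
Bcl2l11: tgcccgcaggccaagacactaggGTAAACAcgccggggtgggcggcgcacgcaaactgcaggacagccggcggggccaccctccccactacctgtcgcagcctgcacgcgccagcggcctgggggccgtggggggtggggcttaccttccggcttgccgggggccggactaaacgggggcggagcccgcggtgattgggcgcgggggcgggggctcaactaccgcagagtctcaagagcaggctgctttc
Bmf: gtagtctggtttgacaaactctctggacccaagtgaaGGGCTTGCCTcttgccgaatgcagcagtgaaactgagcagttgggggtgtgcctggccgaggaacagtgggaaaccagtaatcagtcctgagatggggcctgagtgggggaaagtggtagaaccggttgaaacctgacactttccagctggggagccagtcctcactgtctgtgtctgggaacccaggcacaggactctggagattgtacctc

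For this, 6 motifs were searched on both strands in the windows before each member's annotated starts: the p53 half-site by its consensus, the ATF4-type element TGATGNAA, the forkhead core TGTTTAC, the E-box CACGTG, and the E2F-type sites TTTCCCGC and TTTGGCGC. Windows were used for 6 of the 8 members (Bbc3 with 3, Bmf with 3, Bcl2l11 and Bad with 2 each, Bid and Hrk with 1 each). None was used for Pmaip1 and Bik, which were not searched. The forkhead core lay 167 bases before the start shown for Bbc3, and 227 bases before the start shown for Bcl2l11, where it reads on the opposite strand. It occurs in 3.17% of all 32851 windows of that length. The p53 half-site lay 213 bases before the start shown for Bmf and occurs in 7.13% of windows. No p53 half-site lay in the 3 Bbc3 windows, which says only that these letters are not there. Another Bbc3 window held CACGTG (6.02% of windows) and the Hrk window held TGATGNAA (3.45%). The windows for the 2 starts of Bad and the 1 of Bid held none of these motifs, and no E2F-type site lay in any of the members' windows searched (0.895% and 0.417% of windows). All these shares are per window and per motif, and not per gene. A match is a description of the letters and not a binding site.

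Of the 6 members tested, 1 fell in R/R cells, none rose and 5 did not pass. The fit across all genes called 0.524% of the genes tested (0.374% lower and 0.15% higher in R/R). Fitted log2 ratios were above 0 in 3 members and below 0 in the other 3, with a median of -0.06 beside -0.02 over all genes tested. The members therefore did not move together: Bbc3 and Bmf lay low on every array, Bid lay slightly high on every array, and Pmaip1, Bcl2l11 and Bad took both signs. For comparison, 30.8% of all genes tested kept 1 sign throughout, all arrays having the WT pool in common. The pool shared by all arrays gives no spread of the control. The p-values rest on the spread between the 3 clones (2 residual degrees of freedom), which limma moderated towards the spread over all genes tested. The pool array has as much weight in the fit as the clones together.

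**Figure D1:**
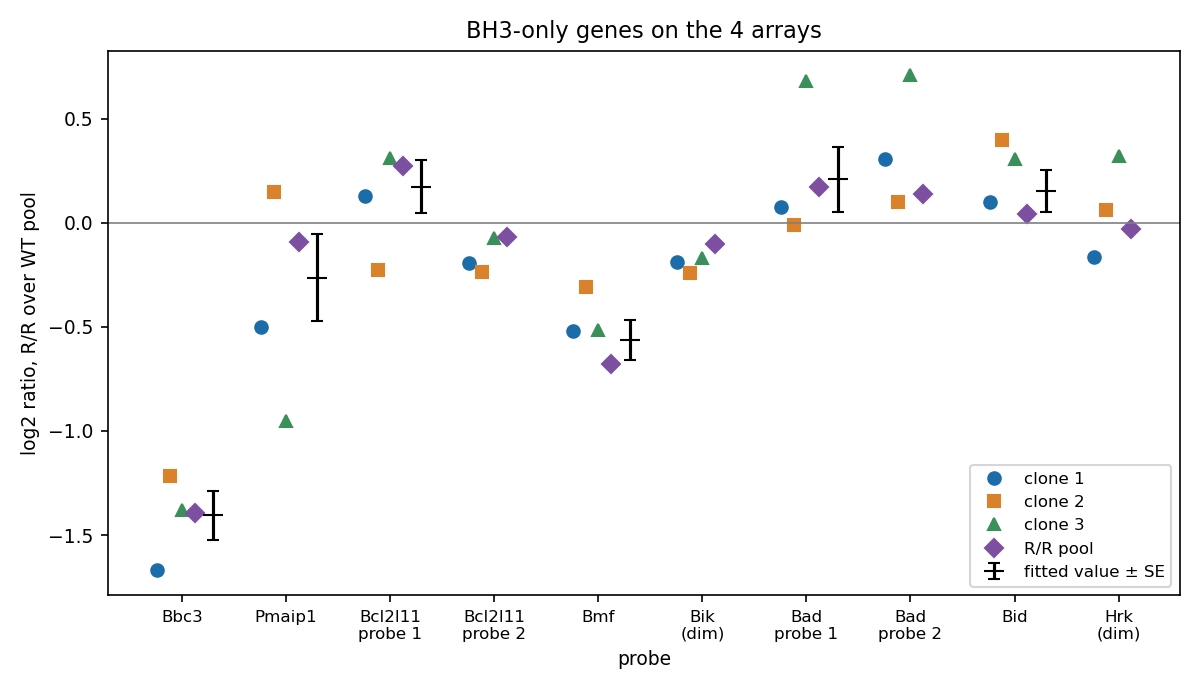
Log2 ratio of R/R over the WT pool (y axis) for the 10 probes of the BH3-only genes (x axis). Each coloured symbol is 1 array (clones 1 to 3 and the R/R pool), and the black bar is the fitted value ± SE for the probe used in the test. All Bbc3 points lie between -1.67 and -1.21, while the Pmaip1 points spread from -0.95 to 0.15.

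Bbc3 encodes PUMA, which binds all BCL2-type survival proteins and is induced by p53 and by other stress-responsive transcription factors. Its log2 ratio was -1.67 in clone 1, -1.21 in clone 2, -1.38 in clone 3 and -1.39 on the pool array. All 4 arrays were low, by clearly more than the SD of 0.23 among the clones. The fitted value was -1.41 ± 0.12 (SE, 3 clones and 1 pool; 95% interval -1.70 to -1.11; limma with Benjamini-Hochberg adjustment, adjusted p = 0.023), which is 2.65-fold higher in WT. By p, Bbc3 ranked number 30 of the 20051 genes.

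The separate channels show where that ratio came from. In the WT channel the normalised log2 intensity of Bbc3 was 9.30, 9.35 and 9.22 on the arrays of clones 1, 2 and 3 and 9.38 on the pool array, so the repeated readings of the WT pool lay within 0.16 although the dye differed on 1 of them. In the R/R channel it was 7.63 in clone 1, 8.13 in clone 2, 7.84 in clone 3 and 7.99 in the R/R pool. The highest R/R reading, 8.13, lay below the lowest WT reading, 9.22. All WT readings are repeats of 1 pool, and the share of all genes without overlap is not given. Clone 1 had the lowest Bbc3 reading and clone 2 the highest. Bbc3 had a single probe, annotated to NM_133234, so no other probe checks it. The call was lost with the scanner software's own log ratios, at -1.68 (adjusted p = 0.096), and with median centring, at -1.44 (adjusted p = 0.091). It passed in the other 14 of 16 settings, with adjusted p from 0.00077 to 0.037.

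**Figure D2:**
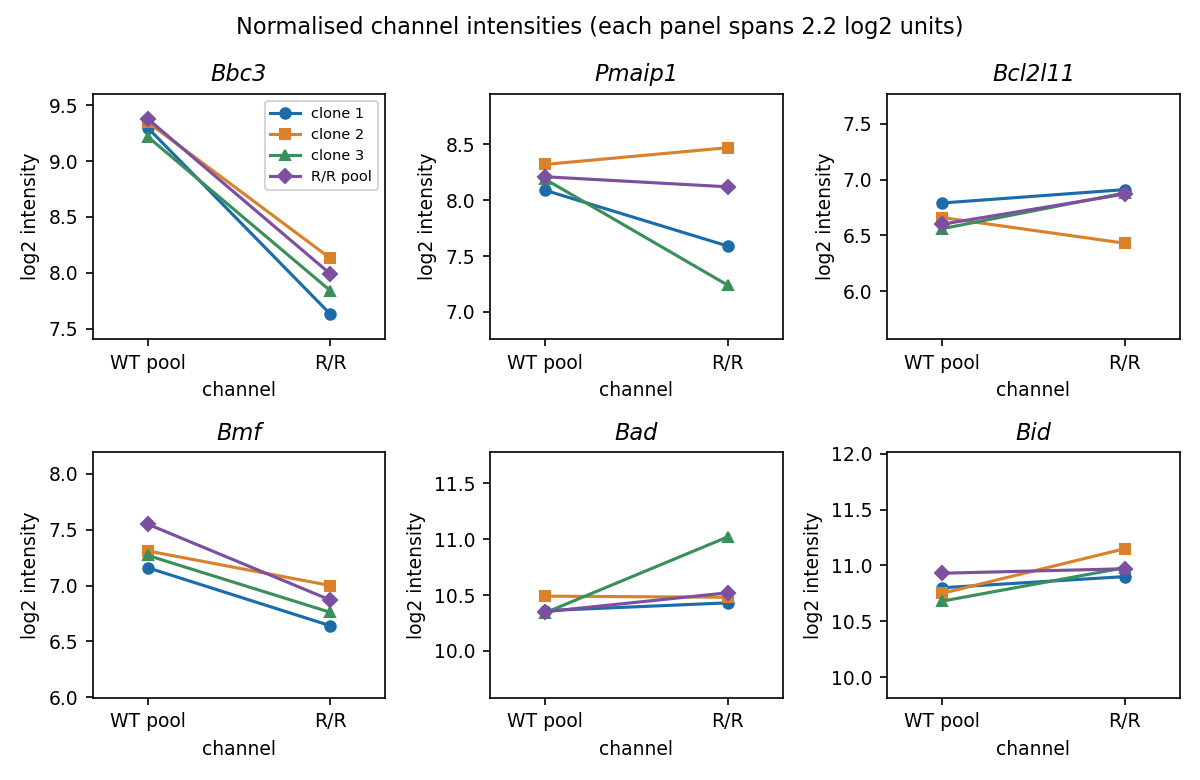
Normalised log2 intensity (y axis) in the WT pool channel and the R/R channel (x axis) for the probe used in the test of each of 6 BH3-only genes. A line joins the channels of 1 array, and every panel spans the same range. The Bbc3 lines all drop steeply from 9.22 to 9.38 in WT, whereas the Pmaip1 lines start within 0.23 of each other and fan out in R/R.

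Bmf, a BH3-only protein known to be held at the cytoskeleton by dynein light chain and released on detachment or stress, was the member with the next smallest p. Its log2 ratio was -0.52 in clone 1, -0.31 in clone 2, -0.51 in clone 3 and -0.68 on the pool array. Every array was low, but the fitted value of -0.56 ± 0.09 (95% interval -0.80 to -0.33) did not pass (limma adjusted p = 0.094). Its WT readings ran from 7.16 to 7.55 and its R/R readings from 6.64 to 7 on the log2 scale. For Bmf as for Bbc3 the WT readings are repeats of 1 pool. The share of all genes without overlap is not given, so the lack of overlap cannot be weighed for either gene. Bmf had an SD of 0.12 among the clones, and 31.3% of the genes tested had a smaller one. The size of its ratio moved with the processing: the scanner software's log ratios gave -0.98 (adjusted p = 0.172) and a background offset of 16 gave -0.76 (adjusted p = 0.087). Bmf passed only with no dye term, at -0.51 (adjusted p = 0.022), or at a threshold of 0.10. Those settings called 1140 and 310 of the 20051 genes tested, against 105 in the main setting.

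**Figure D3:**
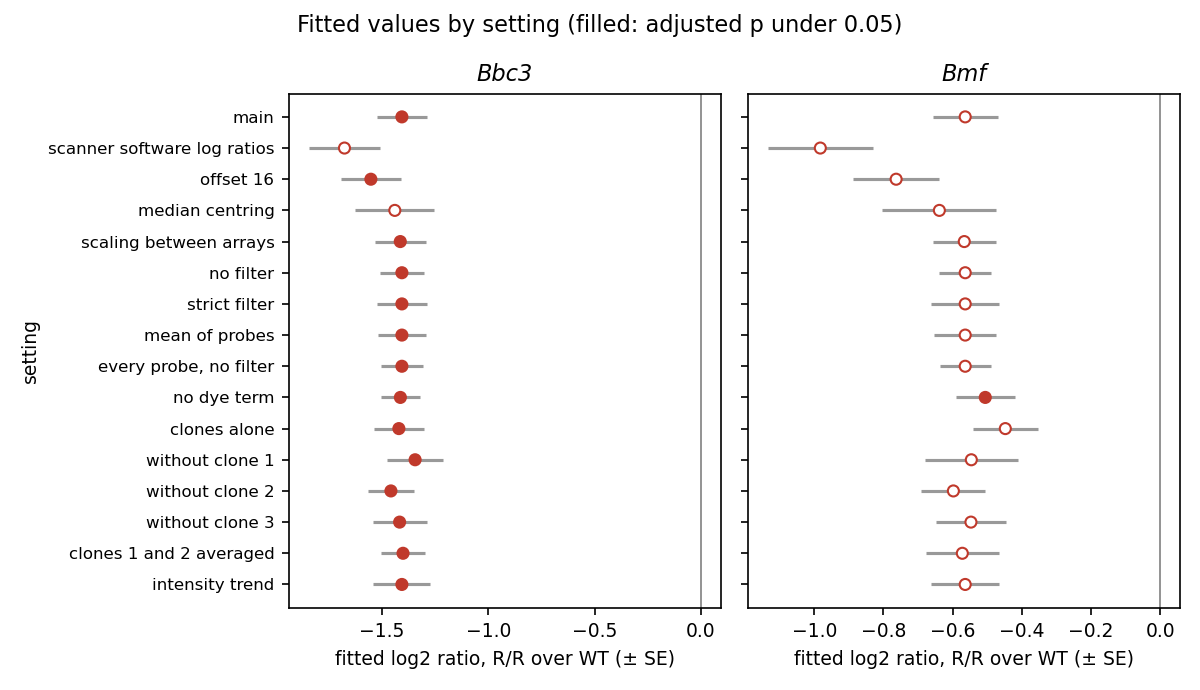
Fitted log2 ratio ± SE (x axis) of Bbc3 and Bmf under the main setting and 15 of the alternatives (y axis); filled points have an adjusted p under 0.05. Every point lies below 0, Bbc3 between -1.68 and -1.34 and Bmf between -0.98 and -0.45.

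Pmaip1 encodes NOXA, which chiefly binds MCL1 and BCL2A1 and is a p53 and stress target. It differed most among the clones of all members. Its log2 ratio was -0.50 in clone 1, 0.15 in clone 2, -0.95 in clone 3 and -0.09 on the pool array. Clone 3 was low and clone 2 slightly high, although clones 1 and 2 carry identifiers with a shared number. The SD among the clones was 0.55, larger than that of 95.7% of the genes tested. The WT readings on the log2 scale were 8.09, 8.32, 8.19 and 8.21, whereas R/R readings were 7.59 in clone 1, 8.47 in clone 2, 7.24 in clone 3 and 8.12 in the pool. The R/R readings thus spanned 1.23 units around a WT span of 0.23. The fitted value was -0.26 ± 0.21 (95% interval -0.79 to 0.26; limma adjusted p = 0.578), an interval that holds both no change and a log2 ratio of -0.79. Among the myeloid markers, Itgam (-0.42, 0.26 and -0.98) and Csf1r (-0.18, 0.11 and -0.26) likewise had their highest value in clone 2 and their lowest in clone 3, while Elane stood at 0.02, 0.00 and -0.21. Itgam and Csf1r had 3 probes each, and the probes used fitted at -0.38 and -0.08. Their other probes fitted at 0 and 0.09 for Itgam and at 0.04 and 0.07 for Csf1r. The part of these markers in the Pmaip1 values was not tested.

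Bcl2l11 encodes BIM, which binds all BCL2-type survival proteins and is kept low in many haematopoietic cells by growth factor and ERK signalling. Its probe used in the test, annotated to NM_207680, gave 0.13 in clone 1, -0.22 in clone 2, 0.31 in clone 3 and 0.27 on the pool array. Clone 2 alone was below the WT pool. The fitted value was 0.17 ± 0.13 (95% interval -0.14 to 0.49; limma adjusted p = 0.549). R/R readings were 6.91, 6.43, 6.88 and 6.87 and WT readings 6.79, 6.66, 6.56 and 6.60 on the log2 scale, and the channels overlapped. The other Bcl2l11 probe, annotated to the transcript NM_001284410, was well above background in no R/R channel and in 3 of 4 WT channels. It gave -0.19, -0.24 and -0.07 in the clones and -0.07 on the pool array, and -0.12 ± 0.07 in the fit of every probe. On average WT stood 1.09-fold above the R/R reading, or above the lowest well-above-background R/R signal where that was higher. That value is no lower bound, because the measured R/R reading was used where it was the higher one. With no R/R channel above background, the sign at this probe cannot be set against that of the brighter one. Neither probe passed (adjusted p = 0.674 and 0.628 in the fit of every probe by limma, which called 0.291% of probes).

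Bad, a sensitiser that survival kinases are known to inactivate by phosphorylation, had 2 probes that ranked the clones alike. The brighter one gave 0.07 in clone 1, -0.01 in clone 2, 0.68 in clone 3 and 0.17 on the pool array. The dimmer one gave 0.31, 0.10 and 0.71 in the clones and 0.14 on the pool array. Clone 3 stood out as high by both probes, with R/R readings of 11.02 by the brighter probe against 10.43 to 10.52 in the other R/R samples. Bad stood at 0.21 ± 0.16 (95% interval -0.18 to 0.60; limma adjusted p = 0.554), and its SD of 0.38 among the clones exceeded that of 88.7% of the genes tested.

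Bid, which caspase-8 cleaves to link death receptors to the mitochondrial pathway, gave 0.10 in clone 1, 0.40 in clone 2, 0.30 in clone 3 and 0.04 on the pool array. All 4 values were above 0 but small. Its fitted value was 0.15 ± 0.10 (95% interval -0.10 to 0.40; limma adjusted p = 0.501), and WT readings from 10.68 to 10.93 overlapped with R/R readings from 10.90 to 11.15 on the log2 scale.

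Bik and Hrk, BH3-only genes known from epithelial and neuronal cells among others, were not well above background in any of the 8 channels and gave no fold. Their channel readings ran from 5.88 to 6.32 for Bik and from 5.76 to 6.08 for Hrk on the log2 scale, near the lowest signal called well above background on these arrays (5.96 to 6.25). Differences below that signal were not detectable.

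Beside the BH3-only genes, 6 further lists of the pathway were read in the same fit, chosen like the members with earlier results of these data known. Of the BCL2-type survival genes, 5 of 9 were tested; 1 fell, none rose, and the median log2 ratio was -0.23. The one that fell was Bcl2a1d, an NF-kB target that binds NOXA and BIM among others, at -0.96 ± 0.11 (limma adjusted p = 0.048). Its probe was well above background in 4 of 4 WT channels but only 1 of 4 R/R channels. It therefore passed the filter only through WT, the group where it is high, and the size of its ratio is uncertain. Under the strict filter, which asked for a signal well above background in every channel, Bcl2a1d was not tested. The probe may also read the near-identical Bcl2a1 copies. Its adjusted p rose to 0.107 when clone 1 was left out and to 0.062 when clone 2 was left out, and the call was also lost in 5 further settings, and the scanner software's log ratios put it at -3.04. Bcl2l1, which encodes BCL-XL, stood at 0.05, -0.13 and 0.00 in the clones and -0.49 on the pool array (fitted -0.26 ± 0.09, limma adjusted p = 0.273). The pool array was also the dye-swapped one, so this split between clones and pool cannot be told apart from a dye effect.

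None of the 3 effector genes passed. Bak1 stood at 0.28 ± 0.11, above 0 on all 4 arrays (limma adjusted p = 0.331). Bok, a less studied effector, stood at -1.05 in clone 1, -1.30 in clone 2, 0.85 in clone 3 and -0.23 on the pool array. The Bok values split clone 3 from clones 1 and 2 and gave -0.37 ± 0.42. None of 9 genes downstream of the effectors passed, with a median of -0.07. Those with the smallest p were Aifm1, a mitochondrial flavoprotein gene, at 0.28 ± 0.10 (limma adjusted p = 0.274) and cytochrome c (Cycs) at 0.21 ± 0.09 (limma adjusted p = 0.368). Cycs had 0.50 from the pool and -0.21 to 0.01 from the clones, a split that again cannot be told apart from a dye effect.

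Among 10 genes of transcription factors known to act on BH3-only genes, 8 were tested, 1 fell and none rose (median -0.11). Ddit3, which encodes CHOP, a stress factor known to act on Bbc3 and Bcl2l11, fell by 1.54 on the log2 scale (SE 0.10, limma adjusted p = 0.012). It stood at -1.62, -1.88 and -1.56 in the clones and -1.40 on the pool array. Its call was kept in all 16 settings, although the threshold of 0.10 could not lose it. Cebpb, a partner of CHOP, stood at -0.92 ± 0.13 without passing (adjusted p = 0.071). Foxo3 and Foxo4, forkhead factor genes, were not well above background in any channel. A further forkhead factor gene, Foxo1, was well above background in 4 of 4 R/R and 4 of 4 WT channels. It stood at 0.04 ± 0.09 without passing (limma adjusted p = 0.844). Trp53, which encodes p53, stood at 0.015 ± 0.106 without passing (limma adjusted p = 0.958). None of 16 genes of kinases and partners passed (median -0.09). Pim3, a kinase gene whose family phosphorylates BAD, stood at 0.47 ± 0.11 (adjusted p = 0.160) and Pim2 at -0.35 ± 0.10 (adjusted p = 0.196), opposite in sign. Of 5 outlying genes with a BH3-like stretch none passed (median -0.08). The mitophagy receptor genes Bnip3l and Bnip3 stood at -0.94 ± 0.17 (adjusted p = 0.105) and -0.65 ± 0.16 (adjusted p = 0.166), both below 0 on all 4 arrays.

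**Figure D4:**
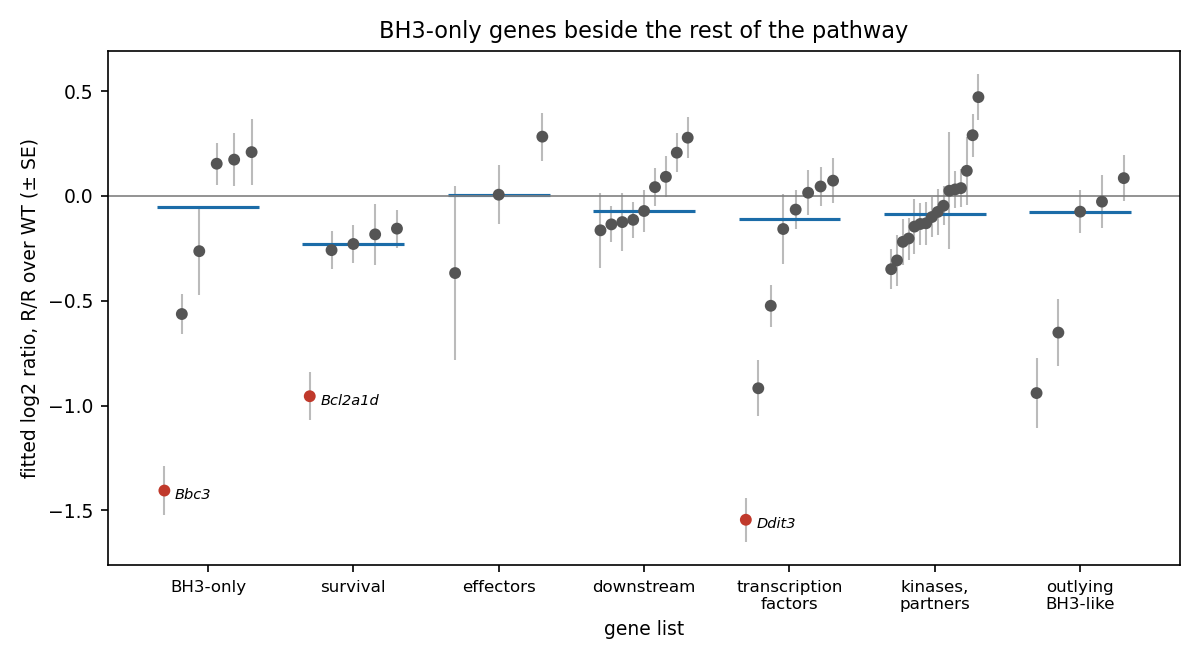
Fitted log2 ratio of R/R over WT ± SE (y axis) for each tested gene of 7 lists (x axis); red points have an adjusted p under 0.05 and the blue line is the list's median. Bbc3, Bcl2a1d and Ddit3 lie below the other genes of their lists, and every list's median lies between -0.23 and 0.01.

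The genes with values most like those of Bbc3 were found by the root mean square distance between log2 ratios over the 4 arrays. They were Gm525 (distance 0.16, fitted -1.52), Ddit4 (0.19, -1.27), Zfp318 (0.21, -1.40), Hoxb6 (0.23, -1.35) and Txnip (0.23, -1.30). They were picked from all genes tested for this likeness, so their fitted values near that of Bbc3 follow from the choice. For Bmf the nearest were Flt3l (distance 0.04, fitted -0.56), Atf4 (0.045, -0.52), Abtb1 (0.06, -0.61), AW549877 (0.06, -0.50) and Cited2 (0.07, -0.63), picked in the same way. Atf4, the central transcription factor gene of the integrated stress response, stood at -0.52, -0.25, -0.53 and -0.62 on the arrays of clones 1, 2 and 3 and the pool. Each value lay within 0.07 of Bmf, which follows from the choice. Atf4 did not pass (limma adjusted p = 0.121), and its other probe fitted at -0.34.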

How the data were processed

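The members and lists were chosen with earlier results of these data known. Per the file headers, each raw intensity is the median brightness of the pixels in a spot or around it, measured with Feature Extraction 11.5.1.1 and not corrected. Per the file headers, the scanner software also wrote a log10 ratio of Cy5 over Cy3 from background-subtracted, dye-normalised intensities. A further table of the authors' values was not used, because its rows match no probe column.

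With limma 3.58.1 in R 4.3.3, background was removed from the median intensities by normexp (offset 50) and each array was normalised by loess, control spots having no weight. Between 210 and 265 outlier spots per array were left out. Probes were named through RefSeq transcripts (27656 of 55681 had 1 symbol). A probe was kept if 3 or more arrays had it well above background for R/R, or for WT, by the software's flags. The brightest kept probe of each gene was fitted with a genotype and a dye term, two-sided, with Benjamini-Hochberg adjustment over 20051 genes and a threshold of 0.05. Channel intensities were taken after Aquantile normalisation. The fitting function was tested on simulated data. Alternatives covered the ratios, offset, centring, scaling, filter, probes, dye term, arrays, variance trend and threshold. Named genes were all members, the called genes and the 2 with the smallest p of each other list, and the 5 nearest to each of 2 members. Foxo1, Foxo3, Foxo4, Trp53 and the lineage markers were named besides. Some lineage markers of the lists are not reported here.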

Additional observations from a re-analysis of the deposited data

How the results depend on the processing

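Each of the 6 tested members kept its direction in all 16 settings run, but not all of these could change it. The filter settings, every probe, the variance trend and the threshold of 0.10 gave each member its main fitted value. The mean of probes did so for the members with 1 probe. The count of called BH3-only genes, 1 in the main setting, was 0 with the scanner software's log ratios and with median centring, and 2 with no dye term and at a threshold of 0.10, where Bmf passed as well. It was 1 in the other 12 settings. Without each clone in turn Bbc3 stood between -1.46 and -1.34 and kept its call. The called genes in the 6 other lists numbered 2 in the main setting. They numbered 1 with the scanner ratios, median centring, scaling between arrays, no filter, the strict filter, the mean of probes and without clone 1, 7 with no dye term, 4 with clones 1 and 2 averaged and 3 at a threshold of 0.10. With the clones left out in turn they numbered 1 to 2. The cause was not tested, except that with no dye term the pool counts as a further replicate. Bcl2a1d was not tested under the strict filter. Over all 20051 genes tested, 105 were called in the main setting. Median centring called 30 genes in all and the ratios of the scanner software 50, whereas a threshold of 0.10 called 310 and leaving out the dye term 1140. In these settings the counts in the lists moved the same way as those over all genes. Scaling between arrays called 113 over all genes but 1 in the 6 other lists. Signal over background limits Bik, Hrk and the dimmer Bcl2l11 probe. The deposited ratio table could not be matched to probes and was not run. No paired analysis was possible because the labels number the clones alone, so that no replicate number is shared between clones and pool, and R/R and WT are already compared within each array.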
